A study of Mus musculus with 4 samples.

Results

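Small nucleolar RNA genes and small Cajal body RNA genes were described in early mouse blastocysts from 2 sources, in vitro fertilization (IVF) and nuclear transfer from somatic cells (SCNT). The members were all rows whose symbol begins with Snord, Snora or Scarna, whatever their values, and there were 114 of them among 23235 gene symbols: 69 Snord genes (box C/D), 36 Snora genes (box H/ACA) and 9 Scarna genes. Each group had 2 libraries, and a library pooled 6 embryos, lysed at 96 hours from fertilization or egg activation. The IVF embryos combined Xist KO oocytes of 129S1/Svj background with WT CAST/EiJ sperm. For SCNT, nuclei came from embryonic fibroblasts that were heterozygous for the Xist knockout, bred from 129S1/SvImj mothers and CAST/EiJ fathers, and the recipient oocytes came from B6D2F1/J (BDF1) females. The maternal Xist knockout was thus carried into both groups, while the oocyte strain differed between them and cannot be told apart from the method of making the embryo. The column names of the SCNT files carry the word kdm4d (Kdm4d encodes a histone demethylase), and no label says why.

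Small nucleolar RNAs are guides. A box C/D RNA pairs with ribosomal or spliceosomal RNA and directs methylation of a ribose there, and a box H/ACA RNA directs the conversion of a uridine to pseudouridine; small Cajal body RNAs do the same for spliceosomal RNAs. In mammals most of these genes lie in introns of host genes, many of which encode ribosomal or nucleolar proteins, and the mature RNA is trimmed out of the debranched intron. Mature small nucleolar RNAs carry no poly(A) tail, and the cDNA kit used here is of a type that primes from such tails. Values for these genes are therefore what was recovered from amplified whole-embryo cDNA, and a lower level cannot be told apart from fewer cells that hold the RNA.

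The sequences of the 3 genes that passed the test are shown first, each with another member of the same host gene, because members of 1 host differed in their values. They were read from GENCODE M21 transcripts (GRCm38) and are written 5′ to 3′, with capitals marking TGATGA, the core of box C, where it lies within the first 20 bases, and CTGA, box D, where it lies within the last 15 bases. Snord42b (chr11:78183056-78183124, minus strand) and Snord4a (chr11:78181686-78181756, minus strand) lie in the ribosomal protein gene Rpl23a, Snord110 (chr2:130275506-130275573, plus strand) and Snord57 (chr2:130278016-130278087, plus strand) in Nop56, which encodes a core box C/D protein, and Snord69 (chr14:31014287-31014366, minus strand) and Snord19 (chr14:31016206-31016281, minus strand) in Gnl3, which encodes the nucleolar GTPase nucleostemin. In that annotation Snord4a and Snord110 lie in introns, and the other 4 overlap an exon of at least 1 host transcript.
Snord42b: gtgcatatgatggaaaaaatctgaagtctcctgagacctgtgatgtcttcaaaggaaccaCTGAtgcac
Snord4a: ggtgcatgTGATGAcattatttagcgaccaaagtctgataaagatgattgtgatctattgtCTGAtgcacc
Snord110: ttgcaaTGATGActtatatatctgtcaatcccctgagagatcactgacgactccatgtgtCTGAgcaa
Snord57: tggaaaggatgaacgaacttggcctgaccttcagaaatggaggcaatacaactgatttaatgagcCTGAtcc
Snord69: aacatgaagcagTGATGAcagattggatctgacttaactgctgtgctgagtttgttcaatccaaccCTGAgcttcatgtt
Snord19: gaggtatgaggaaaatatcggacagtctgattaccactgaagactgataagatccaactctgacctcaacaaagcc

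The next 3 sequences share a host, the non-coding gene 2410006H16Rik, where all 3 lie in introns on the plus strand. Snord49b (chr11:62603079-62603150) and Snord49a (chr11:62603450-62603521) are numbered as copies of 1 family, and Snord65 (chr11:62604515-62604586) is another box C/D gene.
Snord49b: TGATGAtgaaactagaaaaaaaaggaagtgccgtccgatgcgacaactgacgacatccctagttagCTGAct
Snord49a: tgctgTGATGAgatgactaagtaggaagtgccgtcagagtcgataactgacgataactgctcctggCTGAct
Snord65: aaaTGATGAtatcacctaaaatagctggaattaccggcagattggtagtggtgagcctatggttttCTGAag
For box H/ACA, 4 genes are shown, with capitals on ACA where it stands exactly 3 bases before the 3′ end. Snora21 (chr11:97781639-97781775, minus strand) lies in an intron of Rpl23, while Snora7a (chr6:115807975-115808114, minus strand) in Rpl32, Snora65 (chr2:32963291-32963420, plus strand) in Rpl12 and Snora26 (chr5:74093530-74093650, plus strand) in the long non-coding gene Dancr overlap a host exon.
Snora21: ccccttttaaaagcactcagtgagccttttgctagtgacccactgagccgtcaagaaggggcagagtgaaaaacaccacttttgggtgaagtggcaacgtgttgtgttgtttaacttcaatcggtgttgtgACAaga
Snora7a: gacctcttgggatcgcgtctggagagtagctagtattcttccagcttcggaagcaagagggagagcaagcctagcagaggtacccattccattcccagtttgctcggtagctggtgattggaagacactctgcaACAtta
Snora65: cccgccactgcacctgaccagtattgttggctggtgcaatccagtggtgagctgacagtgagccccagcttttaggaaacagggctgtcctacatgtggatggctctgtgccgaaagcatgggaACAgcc
Snora26: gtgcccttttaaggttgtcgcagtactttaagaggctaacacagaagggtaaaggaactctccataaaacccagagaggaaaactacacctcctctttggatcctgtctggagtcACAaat
Of 113 members found in GENCODE, TGATGA stood in the first 20 bases of 43 of 68 Snord genes (63.2%), of 0 of 36 Snora genes and of 4 of 9 Scarna genes, against 0.182% of 2202 microRNA genes. CTGA stood in the last 15 bases of 61 Snord genes (89.7%), of 2 Snora genes, of 5 Scarna genes and of 6.18% of the microRNA genes. ACANNN closed the sequence of 30 Snora genes (83.3%), of 0 Snord genes, of 2 Scarna genes and of 3.27% of the microRNA genes. Only the strand of the RNA was searched, and the windows for CTGA and ACANNN overlap at the 3′ end. Over all 1507 snoRNA genes of that annotation, members included, the shares were 21.7% for TGATGA, 31.4% for CTGA and 18.3% for ACANNN. A gene without a match, such as Snord42b for TGATGA, lacks only those letters in that window.

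The values were taken to be FPKM, fragments per kilobase of transcript scaled to the mapped total, an inferred unit. FPKM over all genes summed to between 933167 and 985197 per library, and read counts are not part of the files used, which leaves depth and counting error unknown. Blastocyst markers were present in every library, with 5 trophectoderm markers summing to 4310 and 3540 FPKM in the IVF and 5910 and 3860 FPKM in the SCNT libraries, inner cell mass markers to between 229 and 299 FPKM and primitive endoderm markers to between 79.9 and 138 FPKM. Markers of other cells were near 0: all 6 cumulus and granulosa markers together reached at most 0.200 FPKM and all 6 oocyte markers at most 3.54 FPKM. The 8 fibroblast markers summed to 1.96 and 0.651 FPKM in IVF and to 5.79 and 0.650 FPKM in SCNT, with Twist2 at 0 everywhere and the others low. All 5 trophectoderm estimates were higher in SCNT and 0 passed with limma (2 had an unadjusted p under 0.05); their part in the results was not tested. Nothing in the labels says whether replicate libraries had separate parents, so each p-value reflects just the scatter among these 4 libraries, which may be technical.

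Most members were not seen in every library. A value at or below 1e-06 FPKM was counted as 0. Of the 114 members, 47 were above 0 in all 4 libraries, 35 in 1 to 3 libraries and 32 in none. Over all 23235 genes these counts were 15013, 4705 and 3517. Some of the 47 came close to 0 in a library. The lowest value was 6.85e-06 FPKM for Snora24, 5.64e-05 FPKM for Snord7 and 0.000104 FPKM for Snora26. They are kept in all counts of members above 0 in all 4 libraries. IVF libraries had 63 and 69 members above 0 and SCNT libraries 64 and 65, and these ranges overlapped. Box H/ACA genes were above 0 in 80.6% to 86.1% of cases per library and box C/D genes in 42.0% to 49.3%, against 71.7% to 77.4% of all genes. Among the 9 Scarna genes, 3 or 4 were above 0 in a library and 0 in all 4. Within a group, 22 members were above 0 in only 1 of the 2 IVF libraries and 19 in only 1 of the 2 SCNT libraries. That is 19.3% and 16.7% of members, against 11.0% and 11.8% of all genes.

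Members listed at 0 everywhere included some whose host genes were abundant. Of the 32, 27 had a host gene in the table, and for 13 of those members the host averaged at least 100 FPKM over the libraries. Snord68, which lies in the ribosomal protein gene Rpl13, Snord42a in Rpl23a and Snord58b in Rpl17 are examples, chosen for their abundant hosts. The annotated lengths of these 3 genes in RefSeq (GRCm38.p6), the lengths used here, are 48, 45 and 55 bases; RefSeq often gives a shorter gene than the GENCODE sequences shown above, 55 against 69 bases for Snord42b. By comparison, Snora35 lies in Htr2c, a serotonin receptor gene, which was itself at 0 in all 4 libraries. Snord116, Snord116l1 and Snord116l2, of the imprinted cluster known for its expression in neurons, were also at 0 in all 4 libraries.

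FPKM of the members followed their annotated length. FPKM divides by length, so a fragment counts for more on a shorter gene. The medians below fell by more than in proportion to length, and the cause of that was not tested. Members of 59 bases or less that were seen at 0.5 FPKM or more had a median lowest value of 843 FPKM, taking the lowest library of each gene (8 genes). The same median was 355 FPKM for 60 to 69 bases (17 genes), 123 FPKM for 70 to 99 bases (18 genes), 36.0 FPKM from 100 to under 120 bases (14 genes) and 14.6 FPKM from 120 to under 150 bases (18 genes). Over 82 members the rank correlation between RefSeq length and the lowest value was -0.875, a description across genes that share libraries and an annotation. Within a library it was between -0.792 and -0.843 for all values of at least 0.5 FPKM. Of the 20 members of at most 59 bases, 12 were at 0 in all 4 libraries. Of the 25 members of 120 bases or more, 0 were.

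**Figure D1:**
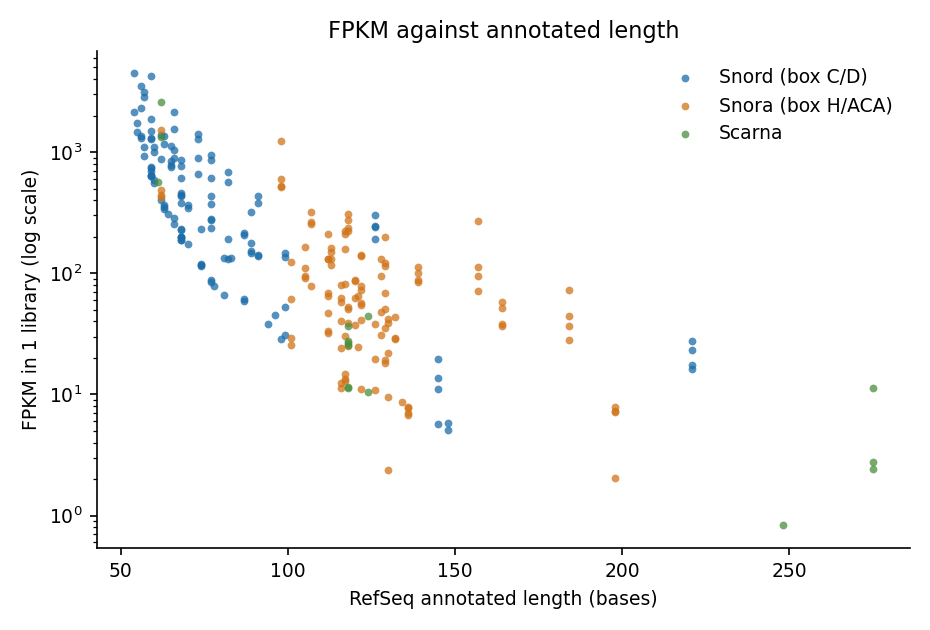
Each point is the FPKM of 1 member in 1 library (log scale, values of at least 0.5 FPKM) against its RefSeq length in bases, coloured by class. The lowest value of a gene has a median of 843 FPKM at 59 bases or less and of 14.6 FPKM from 120 to under 150 bases.

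At 59 and at 68 bases, the values of members that share the length stood close to whole multiples of the lowest value. At 59 bases there were 4 detected members and 11 values. In IVF library 1, Snord110 was listed at 746 FPKM, Snord38a at 751 FPKM and Snord52 at 1489 FPKM, which are 1, 1.01 and 1.995 times the lowest. In IVF library 2, Snord110 was listed at 630 FPKM, Snord38a at 1282 FPKM and Snord52 at 1893 FPKM, which are 1, 2.03 and 3.004 times the lowest. Snord69 gave the lowest value in both SCNT libraries, 694 and 634 FPKM, and Snord52 stood at 6.10 and 1.01 times it. Over the 7 values above the lowest, the largest distance from a whole multiple was 3.76%. At 68 bases 5 members gave 14 values, and the 10 above the lowest lay within 6.33% of a whole multiple, the highest being 4. For example, Snord82 was listed at 199 FPKM in IVF library 2 and 606 FPKM in SCNT library 2, 1.06 and 3.04 times the lowest value there. Over all lengths that members shared, 56 of 67 values above the lowest lay within 10% of a whole multiple, a share that large multiples raise, and the other 11 lay up to 34.8% away (Snora69 in IVF library 2, at 1.35 times the lowest). If the lowest value at 59 bases is read as what 1 fragment was worth in that library, Snord110 rested on 1 fragment in each IVF library and Snord69 on 1 fragment in each SCNT library. The files give no fragment counts, so that reading was not tested.

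**Figure D2:**
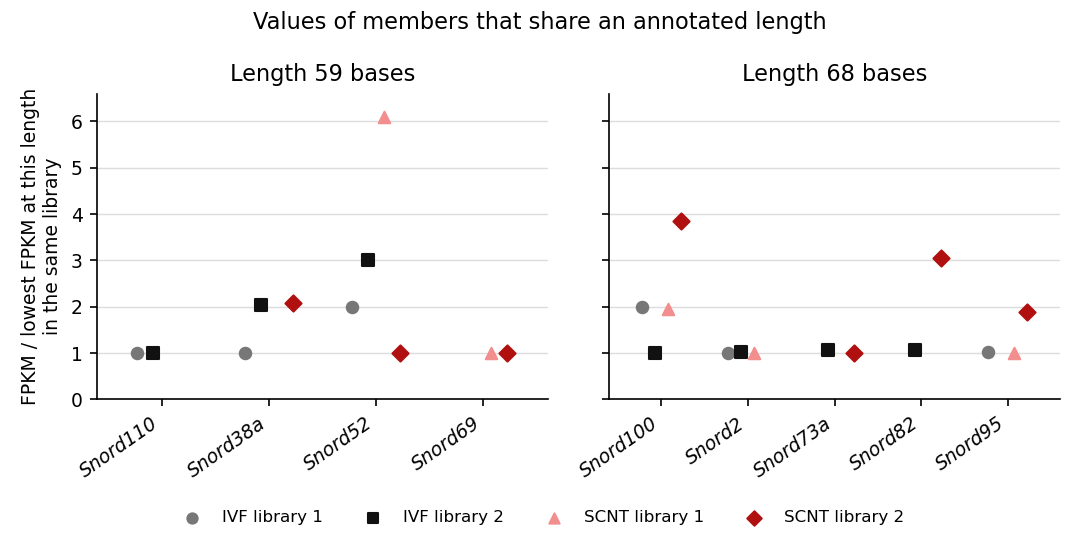
FPKM of members with a RefSeq length of 59 bases (left) and 68 bases (right), divided by the lowest FPKM at that length in the same library; each point is 1 member in 1 library where it was detected. The points gather at whole numbers from 1 to 6.

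The comparison of SCNT with IVF asked which members differed beyond the spread between libraries. With limma on log2(FPKM + 1), 81 members had a mean of at least 1 FPKM and were tested among 11039 genes. Of these, 1 was higher and 2 were lower in SCNT at an adjusted p under 0.05, all of them box C/D genes. Across all tested genes 0.127% passed, 0.0725% higher and 0.0544% lower. All 3 were absent from the 2 libraries of 1 group, at 0, and seen in the other 2, a pattern found in 0.0544% of tested genes with IVF at 0 and in 0.0725% with SCNT at 0. The pattern was not particular to members. With IVF at 0 it was held by 6 tested genes, 1 member and 5 other short RNA genes (Mir, Rnu and similar symbols). With SCNT at 0 it was held by 8, 2 members and 6 other short RNA genes. In all, 129 other short RNA genes were tested. Since a value of 0 enters the test as an exact number with no spread, such genes have small errors whatever lies behind the 0.

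Snord42b had 1724 and 1459 FPKM with IVF and was listed at 0 in both SCNT libraries (limma adjusted p = 0.000132). No other detected member has its length of 55 bases, and the detected members nearest to it in length, Snord19 with 54 bases and Snord99 with 56 bases, had lowest values of 2136 and 1303 FPKM. Snord110 had 746 and 630 FPKM with IVF and was likewise at 0 in each SCNT library (limma adjusted p = 0.000132). Snord69 showed the reverse, with 0 in both IVF libraries and 694 and 634 FPKM in SCNT (limma adjusted p = 0.000132). With 0 in both libraries of 1 group and values above 0 in both of the other, the groups of these 3 genes cannot overlap. All 3 were called under each of 14 other settings. None of those settings gives the listed 0 values any spread, so they add no separate support. Leaving out 1 library raised the number of genes called among members and also among all tested genes, so the rise was not particular to members. Those fits assume a lone library to vary like the other group.

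Other members of the same hosts were distributed differently over the libraries. In Rpl23a, Snord4a was listed at 0 and 174 FPKM (IVF) and 367 and 348 FPKM (SCNT), the order opposite to that of Snord42b, and Snord42a was at 0 throughout. In Nop56, Snord57 was listed at 355 FPKM in IVF library 2 and at 0 in the other 3 libraries. In Gnl3, Snord19 was listed at 4469 FPKM in IVF library 1 and 2136 FPKM in SCNT library 1 and at 0 in both libraries numbered 2, so it split by library number and not by group. Differences of the hosts were within their standard errors. Rpl23a was listed at 2980 and 2368 FPKM (IVF) and 3283 and 2675 FPKM (SCNT), a difference of 0.16 ± 0.26 (SE). Nop56 was listed at 288 and 264 FPKM (IVF) and 268 and 239 FPKM (SCNT), a difference of -0.12 ± 0.19. Gnl3 was listed at 68.4 and 66.9 FPKM (IVF) and 71.9 and 68.99 FPKM (SCNT), a difference of 0.06 ± 0.17. No host of these 3 members passed the test.

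Among box C/D genes above 0 in all 4 libraries, 2 members of 1 host stood furthest from the spread between libraries, in opposite directions, and neither passed. Snord49b was listed at 1175 and 1348 FPKM (IVF) and 364 and 340 FPKM (SCNT), so that both IVF libraries were above both SCNT libraries (log2 difference -1.83 ± 0.21, limma adjusted p = 0.123). Snord65 was listed at 1096 and 936 FPKM (IVF) and 3153 and 2870 FPKM (SCNT), with both SCNT libraries above (1.57 ± 0.23, limma adjusted p = 0.224). The third gene of that host, Snord49a, was listed at 1380 and 402 FPKM (IVF) and 881 and 0 FPKM (SCNT), and its groups overlapped. The host 2410006H16Rik was listed at 394 and 225 FPKM (IVF) and 531 and 269 FPKM (SCNT) (0.34 ± 0.44), higher in both libraries numbered 1. Snord8, in an intron of the chromatin remodeller gene Chd8, was listed at 30.8 and 52.8 FPKM (IVF) and 147 and 135 FPKM (SCNT) (1.78 ± 0.29, limma adjusted p = 0.274), and Chd8 at 4.90 and 5.03 FPKM against 3.99 and 3.96 FPKM. Snord100, in the ribosomal protein gene Rps12, was listed at 457 and 187 FPKM (IVF) and 854 and 766 FPKM (SCNT) (1.47 ± 0.45, limma adjusted p = 0.539); at its length of 68 bases, the IVF values were 1.999 and 1 times the lowest of the library. Lower without overlap were also Snord104, at 1421 and 1289 FPKM (IVF) and 892 and 654 FPKM (SCNT), and Snord96a, at 857 and 941 FPKM (IVF) and 608 and 433 FPKM (SCNT), with differences of -0.83 ± 0.25 and -0.81 ± 0.25 and limma adjusted p = 0.532 and 0.548. Over the 20 box C/D genes above 0 in all 4 libraries, the groups did not overlap for 5 as lower and 3 as higher in SCNT, where 15.1% and 18.3% of all tested genes did. Of the 5, Snord7 was listed at 45.6 and 0.000668 FPKM (IVF) and 5.64e-05 and 0.000114 FPKM (SCNT), so its order rests on values close to 0.

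**Figure D3:**
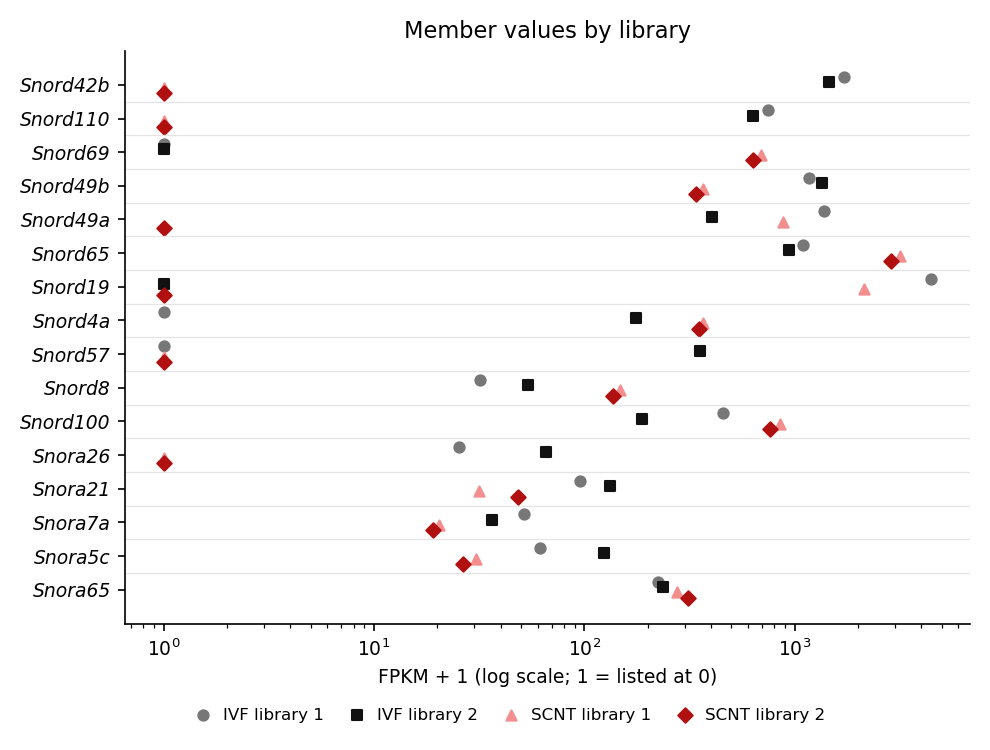
FPKM + 1 (log scale) of 16 members in each of the 4 libraries, where 1 marks a value listed at 0 or close to it. Snord42b and Snord110 sit at 0 in both SCNT libraries and Snord69 in both IVF libraries, Snord19 splits by library number, and Snord49b and Snord65 separate the groups in opposite directions.

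Of the 5 box C/D genes with the highest mean FPKM, Snord65 separated the groups (above) and Snord99, Snord52, Snord19 and Snord12 did not. Snord52 was listed at 1489 and 1893 FPKM (IVF) and 4233 and 642 FPKM (SCNT), so the SCNT libraries enclosed the IVF values. Snord99, one of 4 members in the host gene Snhg12, was listed at 1368 and 2314 FPKM (IVF) and 1303 and 3544 FPKM (SCNT). Snord12, in the non-coding gene Zfas1 (listed as 1500012F01Rik), was listed at 1556 and 1037 FPKM (IVF) and 896 and 2147 FPKM (SCNT). In each of these 3 genes the groups overlapped. The single largest member made up between 9.93% and 17.3% of the summed FPKM of all members in its library, Snord19 in IVF library 1, Scarna17 in IVF library 2, Snord52 in SCNT library 1 and Snord99 in SCNT library 2. Members of Rpl13a also differed by library: Snord34 was listed at 286 FPKM in IVF library 1 and 257 FPKM in SCNT library 2 and at 0 in the other pair, and Snord33 at 566 and 191 FPKM (IVF) and 690 and 131 FPKM (SCNT). Over the 43 tested box C/D genes, 21 estimates were higher and 22 lower, with a median log2 difference of -0.03 against 0.01 over all tested genes. The sign of that median changed with the setting.

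More box H/ACA genes had lower than higher estimates in SCNT, and no single gene passed. Of the 27 Snora genes above 0 in all 4 libraries, 20 estimates were lower and 7 higher, with a median log2 difference of -0.54 against 0.01 over the 10891 tested genes of that kind. The median was -0.18 within the libraries numbered 1 and -0.54 within those numbered 2. The groups did not overlap for 10 of the 27 as lower and 3 as higher in SCNT, where 15.1% and 18.3% of all tested genes did. Over all 32 tested Snora genes the median was -0.54 as well, and it stayed between -0.62 and -0.19 under the 14 other settings. At an unadjusted p under 0.05 with limma, 6 Snora genes were lower and 1 higher, against 2.84% and 4.25% of all tested genes (7.09% in either direction).

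The Snora genes with the smallest p were spread over several hosts. Snora26 was listed at 24.5 and 64.8 FPKM (IVF) and 0.000104 and 0.000105 FPKM (SCNT), above the limit counted as 0 (log2 difference -5.36 ± 0.46, limma adjusted p = 0.0529). Snora26 thus entered the test with almost no spread in SCNT, as a gene listed at 0 does. It passed with a pseudocount of 0.1 FPKM (limma adjusted p = 0.00750), with scaling to the summed FPKM of other genes (0.0315), with the robust prior (0.0197) and without any single library (0.000250 to 0.0226), and it missed the threshold under the other 7 settings (0.0523 to 0.474). Snora21 was listed at 94.6 and 131 FPKM (IVF) and 30.6 and 47.6 FPKM (SCNT) (-1.52 ± 0.29, limma adjusted p = 0.320). Snora7a was listed at 50.4 and 35.5 FPKM (IVF) and 19.3 and 18.1 FPKM (SCNT) (-1.14 ± 0.23, limma adjusted p = 0.320). Snora5c, in a gene of mitochondrial RNA handling, Tbrg4, was listed at 60.8 and 123 FPKM (IVF) and 29.4 and 25.5 FPKM (SCNT) (-1.62 ± 0.36, limma adjusted p = 0.382). In all 4 genes both SCNT libraries were below both IVF libraries. The reverse order was held by Snora65, at 223 and 235 FPKM (IVF) and 275 and 309 FPKM (SCNT), and by Snora33, at 94.3 and 91.0 FPKM against 165 and 110 FPKM. It was also held by Snora74a, at 2.05 and 7.13 FPKM against 7.89 and 7.32 FPKM. Snora62 held it with 0 and 9.49 FPKM (IVF) and 21.8 and 38.7 FPKM (SCNT) (3.21 ± 1.10, limma adjusted p = 0.614). None of the 4 passed the threshold. Over the 32 tested Snora genes, 4 were higher and 10 lower without overlap.

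The hosts of these Snora genes had estimates close to 0 in either direction. Rpl23, host of Snora21, differed by 0.07 ± 0.21, and Rpl32, host of Snora7a, was listed at 3486 and 3146 FPKM (IVF) and 4107 and 3385 FPKM (SCNT) (0.17 ± 0.25). Dancr, listed as 2700023E23Rik, differed by 0.06 ± 0.26, Tbrg4 by 0.05 ± 0.18, Rpl12, host of Snora65, by 0.11 ± 0.23 and Rps12, host of Snora33, by -0.08 ± 0.35. Rpsa, host of Snora62, differed by 0.16 ± 0.37, and no value was listed for the host of Snora74a. Of the 5 Snora genes with the highest mean FPKM, Snora65 separated the groups (above) and the other 4 overlapped. Snora61 was listed at 1529 and 428 FPKM (IVF) and 490 and 440 FPKM (SCNT), Snora68 at 526 and 1239 FPKM against 514 and 604 FPKM, Snora64 at 222 and 160 FPKM against 210 and 81.3 FPKM, and Snora30 at 319 and 253 FPKM against 267 and 78.9 FPKM.

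In sum over the class, Snora genes held 0.476% and 0.431% of all FPKM in IVF and 0.311% and 0.285% in SCNT. The groups did not overlap, and the exact two-sided permutation p of 0.333 is the smallest that 2 libraries against 2 can give. Such sums follow the highest genes. In the libraries numbered 1, Snora61 had 1529 FPKM (IVF) and 490 FPKM (SCNT) of class sums of 4440 and 2979 FPKM. In those numbered 2, Snora68 had 1239 and 604 FPKM of 4245 and 2780 FPKM. Both genes overlapped between groups, and the share without them was not computed. Snord genes held 2.41% and 1.94% in IVF and 2.24% and 1.89% in SCNT, which overlapped (exact permutation p = 0.667). Scarna genes held 0.0681% and 0.263% against 0.00678% and 0.142%. All members together held 2.95% and 2.63% in IVF and 2.56% and 2.31% in SCNT (exact permutation p = 0.333), and without Snord99, the member with the highest mean, the groups overlapped. The summed share of other short RNA genes (Mir, Rnu and Rny symbols, Terc, Rmrp, Rpph1 and Rn7sk) was also lower in SCNT, with 9.46% and 9.58% of all FPKM in IVF and 6.95% and 7.42% in SCNT. Single genes among them did not move 1 way: of 129 tested, 63 estimates were higher and 66 lower, with a median of -0.03, and 5 were called higher and 3 lower. The part of that share in the lower Snora values was not tested.

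**Figure D4:**
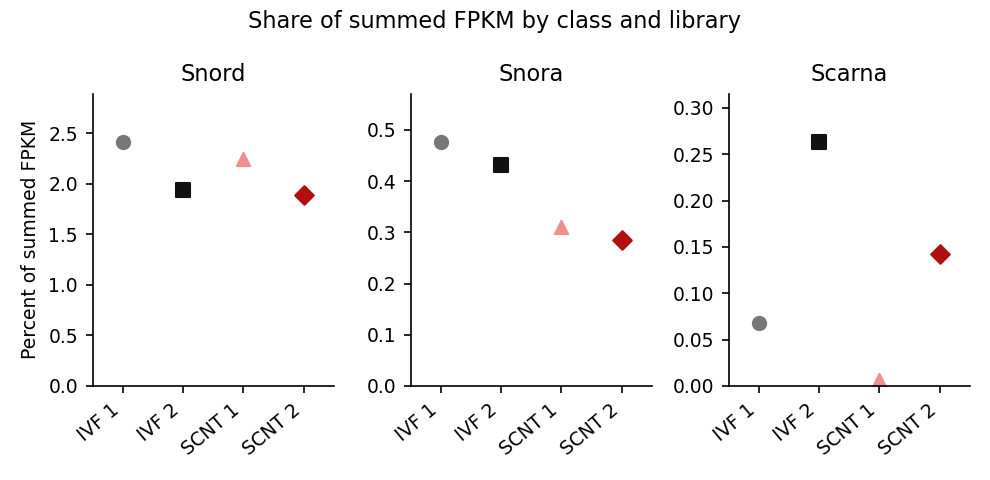
Share of summed FPKM (percent, each axis from 0) held by Snord, Snora and Scarna genes in each library. The Snora points are 0.476 and 0.431 in IVF above 0.311 and 0.285 in SCNT, while the Snord and Scarna points of the groups overlap.

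Scarna genes were seen in few libraries. Scarna17 was listed at 2572 FPKM in IVF library 2 and 1334 FPKM in SCNT library 2 and at 0 in both libraries numbered 1. Scarna2 was listed at 564 FPKM in IVF library 1 and at 0 elsewhere. Scarna8, in an intron of Haus6, an augmin subunit gene,, was listed at 27.6 and 0 FPKM (IVF) and 26.6 and 37.0 FPKM (SCNT). Scarna3a was listed at 0 and 11.4 FPKM (IVF) and 25.4 and 11.6 FPKM (SCNT), while its copy Scarna3b, in another host, was listed at 44.1 and 0 FPKM (IVF) and 10.4 and 0 FPKM (SCNT). None of the 6 tested Scarna genes passed with limma (0 had an unadjusted p under 0.05). With all libraries the log2 difference was -4.57 for Scarna2, 2.37 for Scarna3a and 2.60 for Scarna8. Without IVF library 2 it was -9.14 for Scarna2 and 4.19 for Scarna3a, and without IVF library 1 it was 5.02 for Scarna8. In each case the library left out was the IVF library closer to the SCNT values. The lone IVF library then had no spread of its own, so these larger differences add no support.

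Spread between libraries of a group was wider for members than for genes at large. Among genes above 0 in all 4 libraries, the median absolute log2 difference between the IVF libraries was 0.50 for the 47 members and 0.27 for all 10891 tested genes. Between the SCNT libraries it was 0.49 and 0.24. The 28 other short RNA genes tested and above 0 in all 4 libraries spread more widely than members, with 1.10 between the IVF and 1.19 between the SCNT libraries. Box H/ACA genes had 0.54 and 0.39, and box C/D genes had 0.32 and 0.50. Being above 0 in all 4 libraries kept 27 of 32 tested box H/ACA genes and just 20 of 43 tested box C/D genes. Over all tested genes, values of 0 included, box H/ACA genes had 0.57 and 0.60 and box C/D genes 0.76 and 1.11. Scarna genes had 5.17 and 0.76, and all tested genes 0.27 and 0.24.

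Nearly all members lay inside a longer gene of the same strand. In GENCODE M21, 108 of the 113 members found there did, 81 in protein-coding hosts and 27 in others; 58 lay in an intron of every host transcript and 50 overlapped an exon of at least 1. Fragments of such a transcript and of the small RNA cannot be told apart in these values. The deposited table listed 75 host genes for 101 members, and 22 hosts, holding 31 members, were ribosomal protein genes by symbol (Rpl or Rps). Of the 74 host genes tested, 0 passed with limma at an adjusted p under 0.05 and 1 had an unadjusted p under 0.05, Rbmx, an RNA-binding protein gene that holds Snord61 (0.48, adjusted p = 0.634). Host differences ran from -0.38 to 0.48 with a median of 0.08. Of 43 members above 0 in all 4 libraries with a tested host, 13 had an estimate of the same sign as their host, and the rank correlation of the differences was -0.134, a description across genes that share the 4 libraries.

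**Figure D5:**
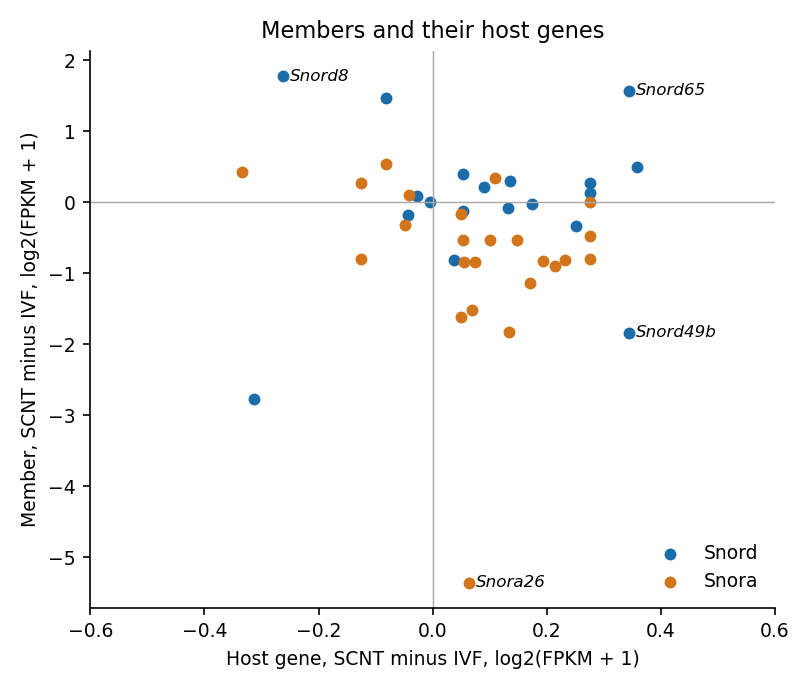
Log2(FPKM + 1) difference, SCNT minus IVF, of 43 members above 0 in all 4 libraries against that of their host genes. Hosts stay between -0.38 and 0.48, while members run from -5.36 (Snora26) to 1.78 (Snord8), and Snord49b and Snord65 share a host on opposite sides of 0.

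No gene for the proteins that build and carry these RNAs passed the test. All 28 genes of a list of core proteins, assembly factors and processing enzymes were tested, 14 estimates were higher and 14 lower, the median was near 0 at -0.0034, and 0 passed with limma (0 had an unadjusted p under 0.05). For the methyltransferase gene Fbl the values were 262 and 241 FPKM (IVF) and 217 and 219 FPKM (SCNT) (log2 difference -0.20 ± 0.18). Dkc1, the pseudouridine synthase of box H/ACA particles, was listed at 90.7 and 85.9 FPKM (IVF) and 78.1 and 62.7 FPKM (SCNT) (-0.33 ± 0.20). The 4 box H/ACA core protein genes Dkc1, Gar1, Nhp2 and Nop10 had estimates below 0, with a median of -0.06 and none past the threshold. Those of Gar1 (-0.009 ± 0.21), Nhp2 (-0.009 ± 0.31) and Nop10 (-0.12 ± 0.22) were within their standard errors. The H/ACA assembly factor gene Naf1 was listed at 2.37 and 2.14 FPKM (IVF) and 3.13 and 2.90 FPKM (SCNT) (0.30 ± 0.18), and Rpap3, a cofactor of the chaperone that assembles box C/D particles, at 27.1 and 19.8 FPKM against 31.9 and 28.4 FPKM (0.36 ± 0.22). Coil, the marker protein gene of Cajal bodies, differed by 0.23 ± 0.23. Nolc1, a nucleolar chaperone gene, was listed at 76.9 and 72.8 FPKM (IVF) and 62.1 and 63.0 FPKM (SCNT) (-0.26 ± 0.17).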

How the data were processed

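RNA of whole blastocysts was measured by sequencing in 4 libraries, 2 IVF and 2 SCNT, grouped by their titles. Per the labels' protocols, 6 embryos were lysed per library, SMARTer Ultra Low Input cDNA was amplified and sheared, and NEBNext Ultra DNA reagents gave the libraries. The deposited values are read here as FPKM made by the authors, a unit inferred from the file headers and the tools named; per the submitters' processing notes these were TopHat2 2.0.14, Bowtie2 2.1.0 and Cufflinks 2.2.1 with mm9. Not given in the sources used here were the annotation, parameters, filters and use of strand, and depth is unknown. FPKM of very short genes depends on how the length is corrected.

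Log2(FPKM + 1) of genes with a mean of at least 1 FPKM was fitted on group alone (limma 3.58.1, R 4.3.3; moderated variances that follow the mean) with Benjamini-Hochberg adjustment over all 11039 genes at 0.05. Differences are SCNT minus IVF on that scale, which understates the change of low genes. The script was tested on simulated data with spread around the mean of each gene. Genes held at 0 in 1 group, as the 3 called members are, were not modelled there, so the test does not speak to those calls. The members and lists were chosen with earlier results of these data known. Members named are those past the threshold, the 5 with the highest mean in each class, those at 0 in 1 group alone, up to 5 per direction with the smallest p among members above 0 in all libraries, their hosts and lettered copies, and up to 4 genes of the protein list; others are named as examples chosen after their values were seen. RefSeq lengths (GRCm38.p6) matched 113 members by symbol; hosts, positions and sequences come from GENCODE M21 (GRCm38), not the build the authors used. Alternatives were other pseudocounts (0.1, 5 and, chosen after seeing the data, 100 FPKM), filters (none, 5 FPKM), scalings and priors, a replicate block and leaving out each library.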

Additional observations from a re-analysis of the deposited data

How the results depend on the processing

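The 3 members called were called in all 14 alternatives, none of which gives their listed 0 values any spread, so these calls cannot test the 0 values. With other pseudocounts, filters, scalings and priors the number of members called was 3 or 4, the added gene being Snora26. Leaving out 1 library gave 8 to 11 called members and 45 to 53 called genes in all, against 14 with all libraries; a library left alone in its group is assumed there to vary like the other group. No host gene and no gene of the protein list passed in any of these limma fits. The replicate numbers are not said in the labels to mark a shared day or batch, and deviations of same-numbered libraries correlated at 0.309 over all tested genes and 0.313 over members. With the number as a replicate block 5 members were called, adding Snord49b (adjusted p = 0.0374) and Snord65 (0.0300), and 20 genes in all. The share of FPKM in members stayed lower in SCNT throughout (by -0.516 to -0.191 percentage points without single libraries). Over the 27 named members, 17 of 377 estimates turned sign, none of them called. Without single libraries the log2 difference ran from -6.14 to 5.19 for Scarna17, -3.74 to 1.75 for Scarna3b, -1.72 to 0.12 for Snora61, -1.20 to 0.16 for Snora64, -1.15 to 0.082 for Snora68, -0.50 to 0.76 for Snord12, -6.60 to 5.53 for Snord19, -9.54 to 0.24 for Snord49a, -1.39 to 1.33 for Snord52 and -0.45 to 0.99 for Snord99, and with a pseudocount of 100 FPKM Snord52 turned from -0.026 to 0.011. The cause was not tested. The class medians ran from -0.20 to 0.19 for Snord and from -0.47 to 1.01 for Scarna over the alternatives, so neither has a direction.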
